A study of Mus musculus with 24 samples.

Results

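The genes described here are Aldh1a3, Neurog3, Sox9 and Hes1, which are used in mouse pancreas as markers of progenitor cells and of β cells that have lost their mature identity. They were taken from the expression table as the rows whose NCBI Gene numbers map to these mouse symbols, 4 of 28059 genes. Each has 1 row, and each passed the filter on low values (at least 1 RPKM in at least 4 libraries) that kept 14342 genes for testing. RPKM, the deposited unit, is the number of reads of a gene scaled to its length and to the size of the library. Levels are compared on this scale, and other scalings of the libraries, given below, changed which share of genes was called.

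RNA was sequenced from whole islets of mice aged 3 to 4 months on a mixed background, after the islets had been cultured and picked by hand. Every group carried floxed Cop1 (Cop1 fl/fl). Cop1 encodes a ubiquitin ligase whose known targets include the ETS factors ETV1, ETV4 and ETV5. Controls carried no Cre. The Cop1 deletion groups also carried Pdx1.CreERT2, a Cre recombinase activated by tamoxifen and driven by the Pdx1 promoter, which is active in β cells and also in δ cells. The Etv1/4/5 group of set 1 carried Pdx1.CreERT2, floxed Cop1, floxed Etv1, floxed Etv5 and 2 knockout alleles of Etv4 (Etv4ko/ko). The Etv4/5 group of set 2 carried Pdx1.CreERT2, floxed Cop1, floxed Etv5 and 1 knockout allele of Etv4 (Etv4ko/+). The Etv4 alleles are labelled as knockouts and not as floxed, so they are not limited to cells with Cre. By sample number the libraries form 2 sets, each with its own controls, and comparisons were made within a set. Set 1 held 3 control, 3 Cop1 deletion and 4 Etv1/4/5 libraries, and set 2 held 4 control, 4 Cop1 deletion and 4 Etv4/5 libraries. Replicate numbers only name libraries, and the labels do not tie them to single animals, so the p-values measure the spread between libraries, which may be in part technical.

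NEUROG3 is a basic helix-loop-helix factor that commits pancreatic progenitors to the endocrine lineage and is switched off as islet cells mature. SOX9 maintains the multipotent progenitors of the embryonic pancreas and stays on in adult duct cells. HES1, the main effector of Notch receptors in these progenitors, represses Neurog3 and so delays endocrine differentiation. ALDH1A3 oxidises retinaldehyde to retinoic acid; it is low in healthy β cells and is a widely used marker of β cells that dedifferentiate in diabetes models.

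Depth can be read from the table, because 98.2% of the genes tested have values that are whole numbers of reads within 0.01 of a read. The libraries held 18.2 to 29.0 M reads in set 1 and 41.7 to 55.0 M reads in set 2. Cop1, counted over the whole gene, had 1.22 to 1.55 RPKM in the set 1 controls and 0.984 to 1.13 in the Cop1 deletion libraries, and 1.43 to 1.87 against 0.763 to 0.934 in set 2. Esr1 encodes the estrogen receptor, part of which is fused to Cre in CreERT2. It had 44.0 to 111 RPKM in every library labelled with Cre and 0.05 to 0.200 in 6 of the 7 controls. In the remaining one, labelled set 1 control replicate 2, Esr1 was at 99.1 RPKM, together with the lowest Cop1 of the 7 controls, 1.22 RPKM. This goes against its label, so the differences from control of the 4 genes that use it are given with and without it. The Etv transcripts were also counted over the whole gene, and the removed part of each gene is not given in the sources used here, so these levels do not check the labels. Mean Etv5 was 4.94, 2.8 and 3.69 RPKM in the control, Cop1 deletion and Etv1/4/5 libraries of set 1, and 5.39, 2.14 and 1.56 RPKM in the control, Cop1 deletion and Etv4/5 libraries of set 2. Against Cop1 deletion Etv5 differed by 0.33 (limma adjusted p = 0.68) in Etv1/4/5 and by -0.33 (limma adjusted p = 0.51) in Etv4/5 libraries, and Etv1 by 0.15 (limma adjusted p = 0.82) in Etv1/4/5 libraries. Etv4 was higher in Etv1/4/5 libraries, at 0.928 to 1.53 RPKM against 0.0551 to 0.0775 RPKM after Cop1 deletion (1.63, limma adjusted p = 3.9e-05). Xist, which is expressed in females, was above 1 RPKM in 1 of 3 controls, 1 of 3 Cop1 deletion and 2 of 4 Etv1/4/5 libraries of set 1, and in 4 of 4 controls, 2 of 4 Cop1 deletion and 2 of 4 Etv4/5 libraries of set 2. In whole islets, fewer cells of a type and less RNA per cell cannot be told apart.

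Of the 4 genes, Neurog3 has a promoter entry in the RefSeq table used here (GRCm38.p6, which is not the mm9 build of the reads). It is shown because ETS factors such as the ETV proteins bind sites of the type CCGGAA and because Neurog3 is itself bound by helix-loop-helix factors at E-boxes. The window runs from 250 bases before to 50 bases after the start of the gene, chr10:62132840-62133139, on the plus strand. Capitals mark the matches to the ETS core CCGGAA and to the E-box CANNTG, searched on both strands.
Neurog3: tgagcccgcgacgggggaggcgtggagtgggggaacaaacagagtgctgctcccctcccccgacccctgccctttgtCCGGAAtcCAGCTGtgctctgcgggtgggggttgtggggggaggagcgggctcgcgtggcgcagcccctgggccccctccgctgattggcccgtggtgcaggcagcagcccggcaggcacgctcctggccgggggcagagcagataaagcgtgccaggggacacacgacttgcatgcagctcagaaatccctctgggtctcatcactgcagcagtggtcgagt
The ETS core lies at positions -173 to -168 and the E-box at -165 to -160, and they do not overlap. The shorter GGAA, not marked, occurs 2 times in the window, once within CCGGAA, and is in 96.0% of windows. CCGGAA was present in 14.9% and CANNTG in 72.3% of the 32851 promoter windows of this length. The N-box CACNAG, a site of HES proteins, was not in this window and was in 42.5% of all windows, and TATAAA was not in it and was in 13.6%. The window has 68.3% G and C, against a median of 52.7%. These matches describe letters, and binding was not measured.

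Aldh1a3 was the most strongly changed of the 4 genes. In set 1 it stood at 2.04, 12.7 and 0.776 RPKM in control replicates 1 to 3, at 37.7, 39.4 and 21.2 RPKM in Cop1 deletion replicates 2 to 4, and at 4.07, 4.47, 2.76 and 2.82 RPKM in the Etv1/4/5 replicates. In set 2 it stood at 0.935, 1.17, 2.59 and 1.65 RPKM in the controls, at 10.3, 17.8, 33.5 and 5.46 RPKM in the Cop1 deletion libraries, and at 8.0, 4.51, 9.35 and 4.29 RPKM in the Etv4/5 libraries. All 7 Cop1 deletion libraries were thus above every control of their set, and the highest control was the library whose Esr1 goes against its label. The values rest on 48 to 2986 reads per library in set 1 and 158 to 5348 in set 2, so counting error is small beside the spread between libraries.

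**Figure D1:**
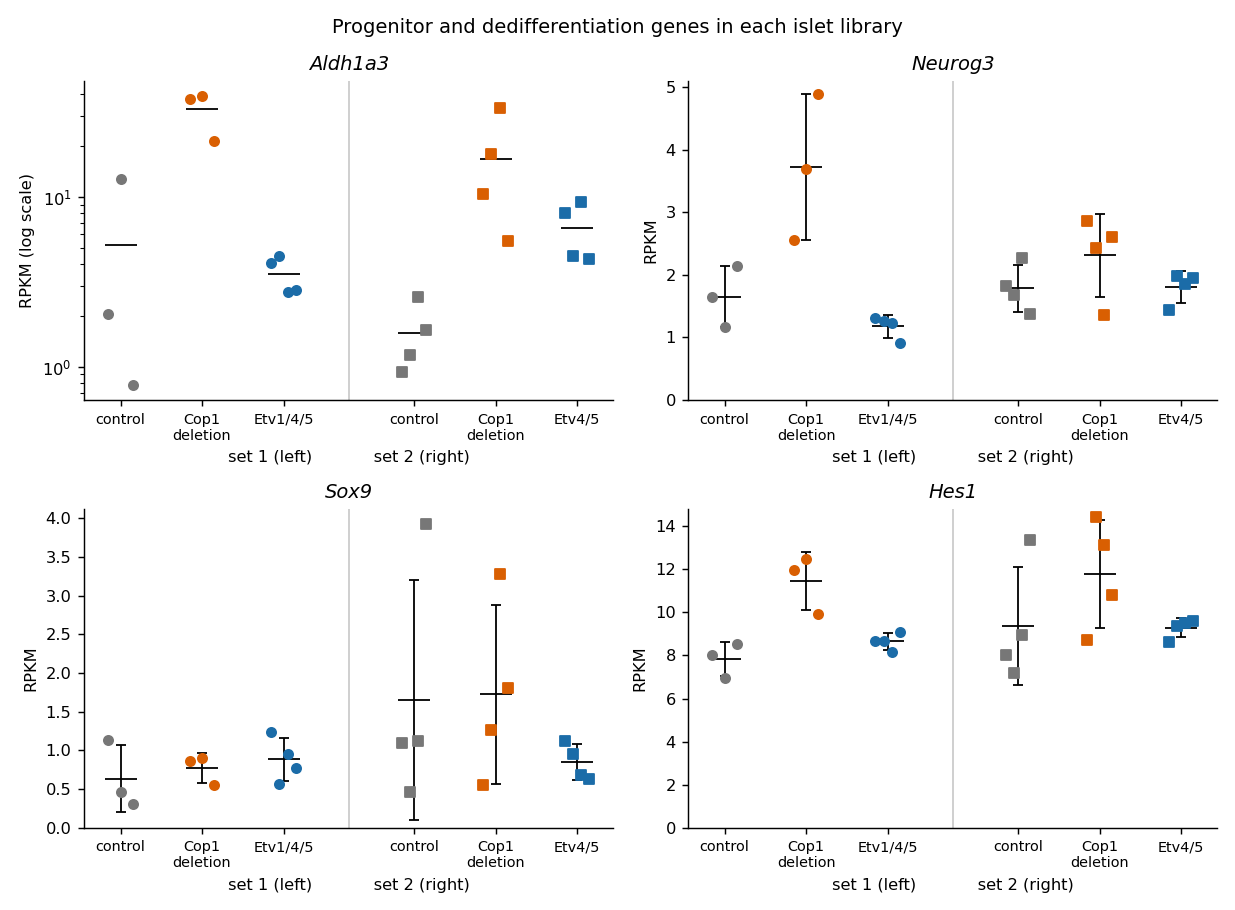
RPKM of Aldh1a3 (log axis), Neurog3, Sox9 and Hes1 in each library, with set 1 left of the line (circles) and set 2 right of it (squares). Points are libraries, long bars are group means and error bars are SDs; Aldh1a3 has no error bars because of its log axis. Aldh1a3 is above every control of its set in all 7 Cop1 deletion libraries, while the Sox9 groups overlap.

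Mean Aldh1a3 was 5.18 ± 6.57 RPKM (SD, n = 3) in set 1 controls and 32.8 ± 10.1 (SD, n = 3) after Cop1 deletion, a ratio of 6.32. In set 2 the means were 1.59 ± 0.730 (SD, n = 4) and 16.8 ± 12.3 (SD, n = 4), a ratio of 10.6. In limma on log2(RPKM + 0.5), Aldh1a3 rose by 3.20 (SE 0.65, adjusted p = 0.0035) in set 1 and by 2.83 (SE 0.56, adjusted p = 0.0017) in set 2. In set 1, 4.04% of all genes tested were called higher (Benjamini-Hochberg adjusted p under 0.05) and 14.7% were higher without overlap of the groups, and in set 2 9.09% and 7.63%. Without the library labelled set 1 control replicate 2, the set 1 difference was 4.16 (limma, adjusted p = 8.1e-05). The effects of the sets differed by 0.37 (95% interval -1.42 to 2.16, limma adjusted p = 0.86), and their mean was 3.01 (95% interval 2.12 to 3.91). By p-value Aldh1a3 ranked 296 of the 14342 genes in that mean. Leaving out the library labelled set 1 control replicate 2, the sets differed by 1.33 (limma adjusted p = 0.31). Their mean was then 3.49 (limma adjusted p = 1.4e-06). In set 2 the Cop1 deletion libraries without Xist had 17.8 and 33.5 RPKM of Aldh1a3 and those with Xist 10.3 and 5.46 RPKM, and the Etv4/5 libraries without Xist had 8.0 and 9.35 RPKM and those with it 4.51 and 4.29 RPKM. In set 1 the Etv1/4/5 libraries without Xist had 4.07 and 4.47 RPKM and those with it 2.76 and 2.82 RPKM, whereas among Cop1 deletion libraries the one with Xist was the highest, 39.4 RPKM. With set 2 libraries limited to those with Xist, all controls and 2 Cop1 deletion libraries, the set 2 call was lost at 2.01 (limma adjusted p = 0.065); with Xist as a covariate, added after the data were seen, it was 2.34 (limma adjusted p = 0.0038).

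In the Etv1/4/5 libraries of set 1, Aldh1a3 was lower than after Cop1 deletion. Mean Aldh1a3 was 3.53 ± 0.870 RPKM (SD, n = 4) in the Etv1/4/5 libraries, and Cop1 deletion libraries had 9.28 times this level. It fell by 3.02 (SE 0.61, limma adjusted p = 0.0037) on the log2 scale against Cop1 deletion, where 2.69% of all genes tested were called lower and 14.1% were lower without overlap. Against control the difference was 0.18 (95% interval -1.09 to 1.45, limma adjusted p = 1), a comparison in which 1.32% of genes were called. That interval depends on the doubted control: without it the difference from control was 1.14 (limma adjusted p = 0.34), since the other 2 controls had 2.04 and 0.776 RPKM and all 4 Etv1/4/5 libraries lay above them.

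In set 2 the Etv4/5 libraries lay between the other groups, at 6.54 ± 2.53 RPKM (SD, n = 4). They overlapped the Cop1 deletion group and did not overlap the controls. The difference from Cop1 deletion was -1.08 (95% interval -2.25 to 0.09, limma adjusted p = 0.25), where 1.73% of genes tested were called. The difference from control was 1.75 (SE 0.56, limma adjusted p = 0.059), where 4.99% of genes were called higher and 21.6% did not overlap, in either direction. It passed the threshold without the library labelled set 1 control replicate 2 (adjusted p = 0.013), which enters only through the shared estimate of spread. The order in set 2 was therefore Cop1 deletion, Etv4/5 and control, and only its ends differed by the test. Whether the Etv1/4/5 and Etv4/5 deletions differ in their effect on Aldh1a3 was not tested, and the groups differ in Etv1, in the Etv4 alleles and in set.

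**Figure D2:**
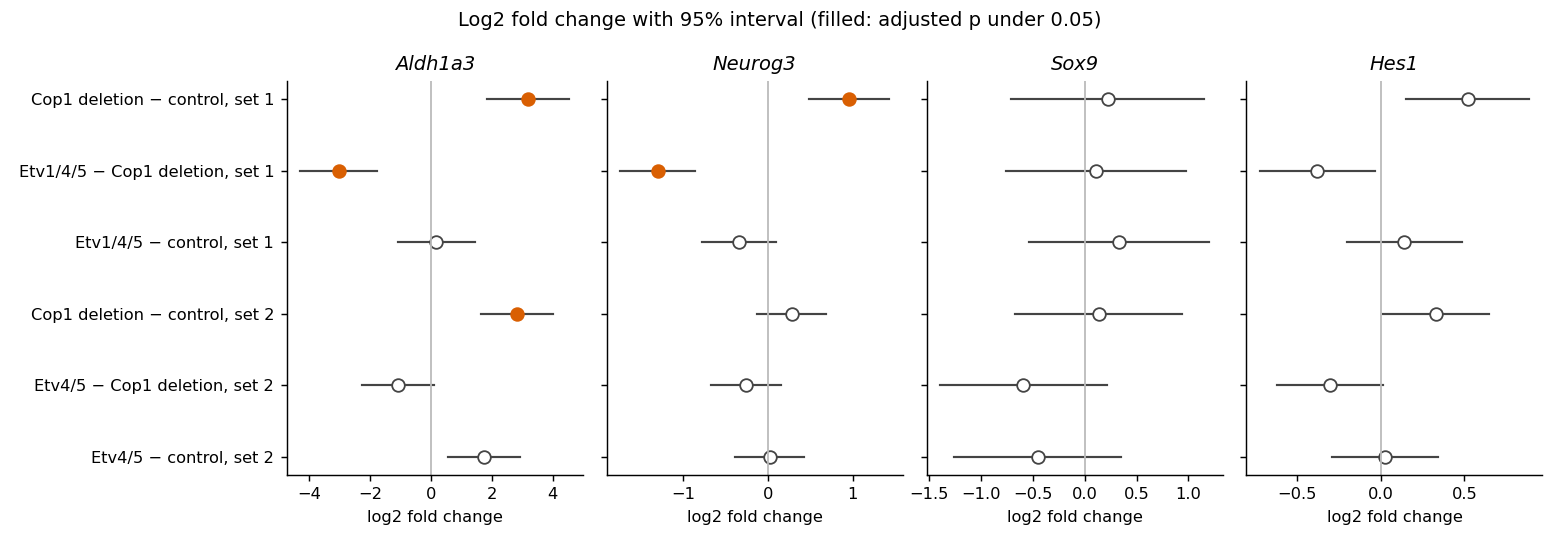
Log2 fold change of each gene in the 6 comparisons within sets, from limma on log2(RPKM + 0.5). Circles are estimates, lines are 95% intervals and filled circles have an adjusted p under 0.05 over all genes tested; the horizontal scale differs between panels. Aldh1a3 is called in 3 comparisons and Neurog3 in 2, and Sox9 and Hes1 in none of these 6.

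Neurog3 rose after Cop1 deletion in set 1 and in the mean of the sets, and was not called in set 2. Its level was 1.65, 1.17 and 2.14 RPKM in the set 1 controls, 2.56, 3.70 and 4.90 RPKM in the Cop1 deletion libraries, and 1.31, 1.26, 1.23 and 0.912 RPKM in the Etv1/4/5 libraries. The Cop1 deletion libraries lay above all others of set 1. Of all genes tested, 14.7% were higher without overlap after Cop1 deletion than in controls of set 1, and 4.04% were called higher. In set 2 Neurog3 was 1.82, 1.68, 2.27 and 1.37 RPKM in the controls, 2.86, 2.43, 1.36 and 2.61 RPKM in the Cop1 deletion libraries, and 1.44, 1.99, 1.85 and 1.95 RPKM in the Etv4/5 libraries. There, 3 of 4 Cop1 deletion libraries were above every control and the other, replicate 3, was at the level of the lowest control.

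Mean Neurog3 in set 1 was 1.65 ± 0.488 RPKM (SD, n = 3) in controls and 3.72 ± 1.17 (SD, n = 3) after Cop1 deletion, a ratio of 2.25 and a log2 change of 0.96 (SE 0.23, limma adjusted p = 0.010). In set 2 the ratio of means was 1.30 and the log2 change 0.28 (95% interval -0.13 to 0.69, limma adjusted p = 0.33). The sets differed by 0.68 (95% interval 0.06 to 1.30), which did not pass after adjustment over all genes (limma adjusted p = 0.25). Of all genes 2.83% passed, and without the doubted control the Neurog3 difference between the sets was 0.51 (limma adjusted p = 0.39). The mean of the sets was 0.62 (SE 0.15, limma adjusted p = 0.0058). The set 1 call was lost without the library labelled set 1 control replicate 2 (0.79, limma adjusted p = 0.054) and without Cop1 deletion replicate 4 (0.76, limma adjusted p = 0.070), whereas the mean of the sets stayed called without the doubted control (0.53, limma adjusted p = 0.021).

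Neurog3 reads were few, 29 to 158 per library in set 1 and 98 to 219 in set 2. The lowest set 1 Cop1 deletion library had 92 reads, or 2.56 RPKM with an exact 95% Poisson interval of 2.07 to 3.14. The highest set 1 control had 60 reads, or 2.14 RPKM with an interval of 1.63 to 2.76. These intervals, which cover counting error only, overlap, so the gap between the groups is within counting error at its nearest libraries.

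The clearest change of Neurog3 was its fall in the Etv1/4/5 libraries. Mean Neurog3 was 1.18 ± 0.179 RPKM (SD, n = 4) there, and the Cop1 deletion libraries had 3.17 times this level. It fell by 1.30 (SE 0.21, limma adjusted p = 0.00064) on the log2 scale and ranked 140 of 14342 genes in this comparison. There 2.69% of all genes tested were called lower and 14.1% were lower without overlap. No Etv1/4/5 library overlapped the Cop1 deletion group in Neurog3, and 3 of 4 lay within the range of the controls. That range reaches down to the doubted control, at 1.17 RPKM. All 4 lay below the other controls, at 1.65 and 2.14 RPKM. The difference from control was -0.34 (95% interval -0.78 to 0.10, limma adjusted p = 0.69), and -0.51 (limma adjusted p = 0.33) without the doubted control. In set 2 the Etv4/5 libraries had 1.81 ± 0.253 RPKM (SD, n = 4), a difference of -0.26 (95% interval -0.67 to 0.15, limma adjusted p = 0.42) from Cop1 deletion and of 0.02 (95% interval -0.39 to 0.43, limma adjusted p = 0.97) from control.

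Hes1 was higher after Cop1 deletion by a small margin that, in the fit used throughout, was called only when the sets were combined. In set 1 it stood at 8.04, 6.95 and 8.52 RPKM in the controls, at 12, 12.5 and 9.94 RPKM in the Cop1 deletion libraries, and at 8.69, 8.67, 8.17 and 9.11 RPKM in the Etv1/4/5 libraries. In set 2 it stood at 8.02, 7.17, 8.96 and 13.3 RPKM in the controls, at 8.73, 14.4, 13.1 and 10.8 RPKM in the Cop1 deletion libraries, and at 8.64, 9.37, 9.53 and 9.61 RPKM in the Etv4/5 libraries. The set 1 Cop1 deletion libraries lay above all others of their set, while in set 2 control replicate 4, at 13.3 RPKM, was above 3 of the 4 Cop1 deletion libraries. Of all genes tested, 14.7% were higher without overlap after Cop1 deletion than in controls of set 1. In Etv1/4/5 libraries 14.1% were lower without overlap than after Cop1 deletion.

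The ratio of mean Hes1 was 1.46 in set 1 and 1.26 in set 2. The log2 changes were 0.52 (SE 0.18, limma adjusted p = 0.075) and 0.33 (SE 0.15, limma adjusted p = 0.14), and Hes1 rose by 0.42 (SE 0.12, limma adjusted p = 0.014) in the mean of the sets. In that mean 9.57% of all genes tested were called higher. Without the doubted control the set 1 change was 0.44 (limma adjusted p = 0.21) and the mean of the sets 0.39 (limma adjusted p = 0.039). The call of Hes1 in that mean was lost with libraries scaled to equal totals without Ins1 and Ins2 (0.34, limma adjusted p = 0.052) and with set 2 limited to libraries with Xist (0.30, limma adjusted p = 0.092). Within sets, the change of Hes1 was called in 9 of 39 alternatives in set 1 and in 4 of 39 in set 2. Against Cop1 deletion the Etv1/4/5 libraries differed by -0.38 (95% interval -0.72 to -0.04, limma adjusted p = 0.20) without overlap, and the Etv4/5 libraries by -0.30 (95% interval -0.62 to 0.01, limma adjusted p = 0.23). Against control the same groups differed by 0.14 (95% interval -0.20 to 0.48, limma adjusted p = 0.94) and 0.02 (95% interval -0.29 to 0.34, limma adjusted p = 0.96), the first being 0.06 (limma adjusted p = 0.96) without the doubted control. Hes1 rests on 225 to 1066 reads per library.

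Hes1 moved with endothelial RNA from library to library. The summed level of 10 endothelial markers, all above 0 in every library, was 170 to 281 RPKM in set 2 controls, 154 to 284 in Cop1 deletion and 223 to 262 in Etv4/5 libraries, and 221 to 242, 233 to 287 and 218 to 256 in the groups of set 1. With group means removed, Hes1 and this sum had a correlation of 0.87 over the 22 libraries, which share library preparation and set. For 10 stromal markers it was 0.70. Set 2 control replicate 4, with the highest Hes1 of the controls, had 281 RPKM of endothelial markers. With the endothelial sum as a covariate, an alternative added after the data were seen, the Hes1 difference was 0.38 (limma adjusted p = 0.014) in set 1, 0.25 (limma adjusted p = 0.038) in set 2 and 0.31 (limma adjusted p = 0.0016) in their mean. With the same covariate the Etv1/4/5 and Etv4/5 libraries differed from Cop1 deletion in Hes1 by -0.31 (limma adjusted p = 0.035) and -0.38 (limma adjusted p = 0.0073). Calls over all genes rose with it too, for Etv4/5 against Cop1 deletion from 248 to 2402 of 14342. For Etv1/4/5 against Cop1 deletion 1374 genes were called with it. For Cop1 deletion 1726 were called in set 1, 3131 in set 2 and 3184 in the mean of the sets. The endothelial list itself had 0 of 10 genes called in the mean of the sets by limma, and 0 at an unadjusted p under 0.05.

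**Figure D3:**
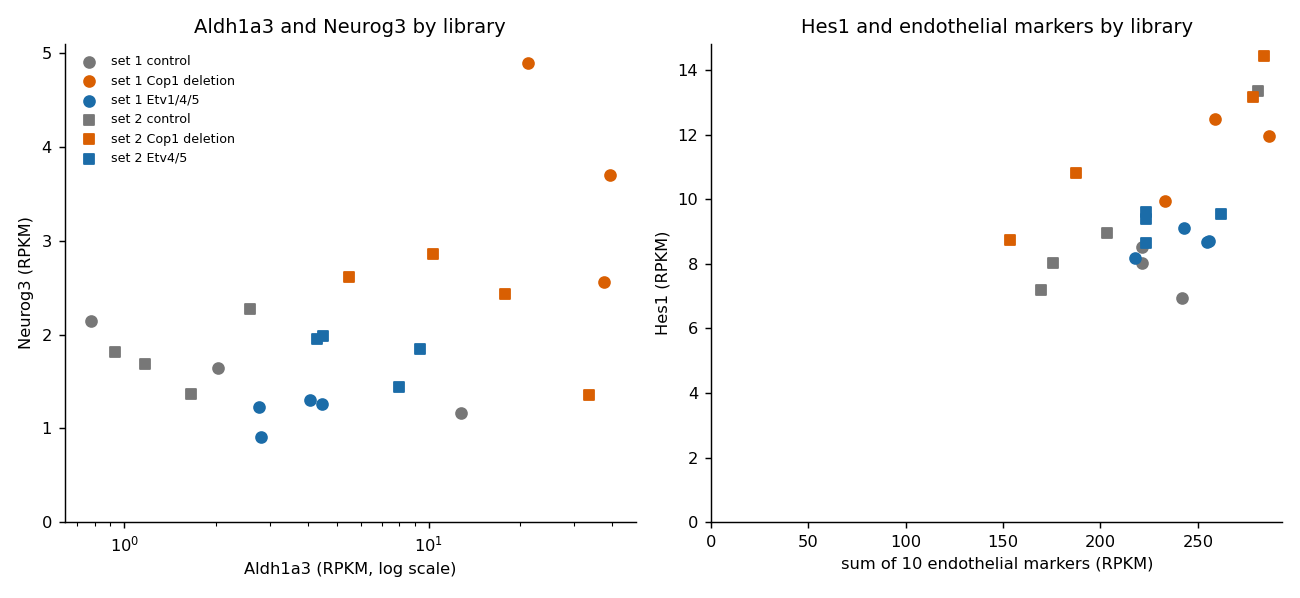
Left, Neurog3 (RPKM) against Aldh1a3 (RPKM, log axis); right, Hes1 (RPKM) against the summed RPKM of 10 endothelial markers. Each point is 1 of the 22 libraries, with circles for set 1 and squares for set 2. Among the Cop1 deletion libraries, set 2 replicate 3 has 33.5 RPKM of Aldh1a3 and the lowest Neurog3, 1.36 RPKM.

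In the fit used throughout, Sox9 did not pass the test in any comparison. It stood at 1.13, 0.466 and 0.305 RPKM in set 1 controls, at 0.859, 0.906 and 0.553 RPKM in Cop1 deletion libraries, and at 1.23, 0.567, 0.957 and 0.771 RPKM in Etv1/4/5 libraries. In set 2 it was 1.10, 0.463, 1.12 and 3.93 RPKM in controls, 0.553, 1.26, 3.28 and 1.81 RPKM in Cop1 deletion libraries, and 1.12, 0.950, 0.682 and 0.627 RPKM in Etv4/5 libraries. The groups overlapped in every comparison, and in set 2 control replicate 4 and, among Cop1 deletion libraries, replicate 3 stood out. In the mean of the sets the difference after Cop1 deletion was 0.18 (95% interval -0.44 to 0.79, limma adjusted p = 0.71, unadjusted p = 0.55). The interval does not exclude a rise as large as that of Neurog3. Without the doubted control, the mean of the sets was 0.14 (limma adjusted p = 0.81), the set 1 change 0.14 (limma adjusted p = 0.93) and the difference of Etv1/4/5 libraries from control 0.25 (limma adjusted p = 0.94). Against Cop1 deletion the Etv1/4/5 libraries differed by 0.11 (95% interval -0.76 to 0.98) and the Etv4/5 libraries by -0.59 (95% interval -1.40 to 0.21), with limma adjusted p-values of 0.95 and 0.35. The latter was called in 1 of 38 alternatives, with library weights (-0.71, limma adjusted p = 0.019), where 3217 of all genes were called.

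Sox9 is a duct marker in the adult, and levels of other cells' markers moved with it. With group means removed, its correlation over the 22 libraries was 0.65 with the summed duct markers other than Spp1, 0.36 with all 16 duct markers, 0.65 with the endothelial and 0.66 with the stromal sum. The same measure was 0.06 with the acinar sum. Set 2 control replicate 4, the library with the most Sox9, had the lowest acinar sum of all, 1041 RPKM, and set 2 Cop1 deletion replicate 3 had the highest, 28267 RPKM. The duct sum without Spp1 was 665 to 850 RPKM in set 2 controls and 1369 to 1715 after Cop1 deletion, while in set 1 it was 749 to 969 in controls and 654 to 734 after Cop1 deletion. Both pairs were without overlap, in opposite directions. It was 1011 to 1117 in Etv1/4/5 and 1043 to 1135 RPKM in Etv4/5 libraries, also without overlap with the Cop1 deletion group of their set. As a covariate this sum is therefore separated by genotype in each of these comparisons. Of 16 duct markers, Cftr and Onecut1 were at 0 in at least 1 library, and the sum was carried by keratins, Cldn4 and Epcam, which endocrine cells also express. The acinar sum was 4403 to 12182 RPKM in set 1 controls, 6365 to 19293 after Cop1 deletion and, in Etv1/4/5 libraries, 3441 to 19806, and 1041 to 14653, 5139 to 28267 and 1295 to 5403 in the groups of set 2. With the duct sum as covariate, the Aldh1a3 call was lost in set 2 (0.54, limma adjusted p = 0.90) and in the Etv1/4/5 libraries against Cop1 deletion (-4.51, limma adjusted p = 0.064), and was kept in set 1 and in the mean of the sets. The same covariate ended the Neurog3 calls of set 1, with 0.72 (limma adjusted p = 0.15) after Cop1 deletion and -0.87 (limma adjusted p = 0.26) in the Etv1/4/5 libraries, and the Hes1 call (0.15, limma adjusted p = 0.65). With the summed Krt19, Muc1 and Cftr as covariate, also added after the data were seen, Aldh1a3 was 2.65 (limma adjusted p = 0.0091) in set 2, and with the acinar sum 2.76 (limma adjusted p = 0.0075). The part of these cells in the members' levels was otherwise not tested.

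Among themselves the 4 genes did not move as a block. With set means removed, the correlation over the 22 libraries was 0.59 between Aldh1a3 and Hes1, 0.44 between Aldh1a3 and Neurog3 and 0.60 between Sox9 and Hes1. These values contain the differences between genotypes. With group means removed, that of Sox9 and Hes1 was 0.70, that of Aldh1a3 and Hes1 was 0.14, and that of Aldh1a3 and Neurog3 was -0.60. Taken over all groups, libraries with more Aldh1a3 thus tended to have less Neurog3, but this did not hold in every group. In set 2 controls replicate 3 was the highest in both genes. In the set 1 Etv group replicates 1 and 2 were the highest in both. The correlation includes the doubted control, which had the highest Aldh1a3 and the lowest Neurog3 of its group. It is not given without that library. The endothelial sum, with group means removed, had a correlation of 0.53 with Aldh1a3 and -0.53 with Neurog3, and the sum of all duct markers 0.48 and -0.42; the part of these cells in the pattern was not tested. In the Cop1 deletion groups, set 1 replicate 4 had the lowest Aldh1a3 and the highest Neurog3 of its group, and set 2 replicate 3 the highest Aldh1a3 and the lowest Neurog3. Libraries share a preparation and differ in cell make-up, so these are descriptions. By level, Hes1 was the highest of the 4 genes in both control groups (7.84 and 9.37 RPKM), and Aldh1a3 was the highest in both Cop1 deletion groups.

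The genes whose pattern over libraries was most like each of the 4, by correlation with set means removed, were read from all tested genes. For Aldh1a3 they were Dusp6 (0.92), a phosphatase that inactivates ERK, Tmem255a (0.90), the G protein subunit Gna14 (0.90) and C630043F03Rik (0.90). For Neurog3 they were Lingo1 (0.84), Prkra (0.83), Cpn1 (0.83), Rwdd3 (0.82) and 8030443G20Rik (0.81). For Sox9 they were the FGF receptor-like gene Fgfrl1 (0.91), the laminin chain gene Lamb3 (0.91), Scara3 (0.89), Zfp36l1 (0.89) and the chloride channel gene Ano1 (0.89). For Hes1 they were Tmem176b (0.89), transferrin gene Trf (0.89), Tmem176a (0.89), Casp8 (0.88) and Ssr2 (0.88). With group means removed the values stayed at 0.90 to 0.91 for the 5 genes of Sox9, while Lingo1 dropped to 0.29 against Neurog3, so its likeness lies mostly between genotypes.

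The other genes of the pathways are described for the mean of the sets after Cop1 deletion, in which 20.1% of all genes tested were called, 9.57% higher and 10.5% lower, with a median log2 change of -0.02. Without the doubted control the numbers of called genes given below for the mean of the sets stayed the same, with these exceptions. Notch pathway genes that fell numbered 3, endocrine differentiation genes that fell 7, duct markers that fell 0 and β-cell maturity genes that rose 0. In other comparisons, endocrine differentiation genes higher in Etv4/5 than in Cop1 deletion libraries numbered 1 without it. In Etv1/4/5 libraries against Cop1 deletion, 3 of these genes were then higher and 1 lower. Retinoid pathway genes lower after Cop1 deletion in set 1 numbered 0 without it. Duct markers whose change differed between the sets were then 0 higher and 3 lower in set 1 than in set 2. With all libraries, the calls over all genes in the mean of the sets were 1372 higher and 1505 lower. They became 1489 and 839 once every library was scaled to an equal RPKM total. Leaving Ins1 and Ins2 out of that scaling gave 751 and 2590. Of 29 Notch pathway genes tested, 2 rose and 4 fell, with a median of 0.02. Those that rose were the γ-secretase subunit genes Ncstn (0.25, SE 0.05, limma adjusted p = 0.0013) and Psen2 (0.23, SE 0.05, limma adjusted p = 0.0033). Those that fell were Dlk1 (-0.82, SE 0.16, limma adjusted p = 0.00086), which encodes a membrane protein related to Notch ligands, the receptor gene Notch1 (-0.31, SE 0.08, limma adjusted p = 0.0073), and, named after their values were seen, the ligand gene Dll1 (-0.31) and the glycosyltransferase gene Rfng (-0.16). Mean Dlk1 was 0.965 RPKM in controls and 0.338 RPKM after Cop1 deletion in set 1, and 2.14 and 1.03 RPKM in set 2. Among HES and ID repressors, relatives of Hes1, limma called 0 of 7, with 3 at an unadjusted p under 0.05; Bhlhe40 was -0.50 (limma adjusted p = 0.15) and Bhlhe41 -0.24 (limma adjusted p = 0.10). Against Cop1 deletion, 1 Notch pathway gene was lower in the Etv1/4/5 libraries, Ncstn (-0.27, limma adjusted p = 0.025), a call lost without set 1 Cop1 deletion replicate 3 or 4 or without Etv1/4/5 replicate 1 or 2 (limma adjusted p of 0.08 to 0.11). Limma called 0 of 29 in the Etv4/5 libraries, with 3 at an unadjusted p under 0.05.

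Genes that act after Neurog3 in endocrine differentiation fell or were not called. Of 18 tested, 6 fell and 0 rose after Cop1 deletion, with a median of -0.15. Neurod1, a direct target of NEUROG3 that mature β cells keep, fell by 0.69 (SE 0.06, limma adjusted p = 1.9e-07) on the log2 scale. Its means were 88.9 and 58.8 RPKM in set 1, controls first, and 88.4 and 51.3 RPKM in set 2. Nkx6-1 and Nkx2-2, transcription factors of β cells, were at -0.69 (limma adjusted p = 0.00011) and -0.47 (limma adjusted p = 0.00031), and the zinc-finger factor gene Insm1 was at -0.39 (limma adjusted p = 0.011). The other 2 that fell, named after their values were seen, were Isl1 (-0.24) and Myt1 (-0.43). Against Cop1 deletion, 2 of the 18 were called higher in the Etv1/4/5 libraries, where 3.65% of all genes tested were called higher. Neurod1, 1 of these 2, was 0.32 higher (limma adjusted p = 0.025), a call lost in 8 of 39 alternatives, 5 of which leave out 1 library: Cop1 deletion replicate 3 or 4 or Etv1/4/5 replicate 2, 3 or 4. Limma called 0 of 18 in the Etv4/5 libraries, with 9 at an unadjusted p under 0.05. Pax4, another early endocrine gene, did not reach the filter.

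Factors of multipotent progenitors, the class to which Sox9 belongs, were mostly not called: 1 of 13 tested fell and 0 rose, with a median of -0.04. The one that fell was Hnf4a (-0.30, SE 0.10, limma adjusted p = 0.034), a liver and islet nuclear receptor, and its call was lost in 13 of 38 alternatives, 8 of which leave out 1 library: set 1 control replicate 1 or 2, set 1 Cop1 deletion replicate 2, 3 or 4, set 2 control replicate 1 or 4, or set 2 Cop1 deletion replicate 2. Limma called 0 of 7 other SOX genes, with 1 at an unadjusted p under 0.05. Sox4, which has roles in islets, was 0.15 (limma adjusted p = 0.55), and the endothelial gene Sox18 was 0.17 (limma adjusted p = 0.61).

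The log2 change of Aldh1a3, 3.01, was larger than that of any other retinoid pathway gene tested. Of 24 listed genes other than Aldh1a3, 15 were tested, 4 rose and 1 fell, with a median of 0.20. Those that rose were the dehydrogenase/reductase genes Dhrs7 (0.49, SE 0.07, limma adjusted p = 2.6e-05) and Dhrs3 (0.78, SE 0.17, limma adjusted p = 0.0034), the receptor gene Rarg (0.23, SE 0.06, limma adjusted p = 0.0070), and, named after its values were seen, Cyp26b1 (0.99, SE 0.25, limma adjusted p = 0.0079), which encodes an enzyme that degrades retinoic acid. Its means were 0.248 RPKM in controls and 0.975 RPKM after Cop1 deletion in set 1, and 0.476 and 1.91 RPKM in set 2. Rdh11, a retinol dehydrogenase gene, fell (-0.40, SE 0.10, limma adjusted p = 0.0052). Within sets, limma called 0 of the 15 higher and 1 lower in set 1, and 4 higher and 0 lower in set 2. The set 1 call, that of Rdh11, was lost without the doubted control and in 27 of 39 alternatives in all. The difference between the sets was called for 0 of the 15, with 3 at an unadjusted p under 0.05. Against Cop1 deletion, Dhrs7 was lower (-0.54, limma adjusted p = 0.0012) and Rdh11 higher (0.55, limma adjusted p = 0.016) in the Etv1/4/5 libraries. This Rdh11 call was lost in 6 of 39 alternatives. Of these, 3 leave out 1 library: set 1 Cop1 deletion replicate 3 or 4 or Etv1/4/5 replicate 1. Among 15 other aldehyde dehydrogenase genes, Aldh3b1 (0.56) and Aldh1l1 (0.44) rose and Aldh5a1 (-0.49) fell, with limma adjusted p-values of 0.0031, 0.0043 and 0.0032. All 3 were called in set 2, and limma called 0 of 15 in set 1, with 3 at an unadjusted p under 0.05; Aldh5a1 differed between the sets (0.20 in set 1 and -1.18 in set 2, limma adjusted p = 0.0017 for the difference). Aldh1a1 and Aldh1a2, the other retinaldehyde dehydrogenases, are named after their values were seen; they were at 0.17 (limma adjusted p = 0.69) and 0.35 (limma adjusted p = 0.38).

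Other markers reported in dedifferentiated or immature β cells moved in both directions: of 16 tested, 4 rose and 2 fell, with a median of 0.03. Gast, the gastrin gene of the embryonic pancreas, was at 1.08 (SE 0.17, limma adjusted p = 0.00014), Serpina7 at 1.48 (SE 0.31, limma adjusted p = 0.0023), Cd81 at 0.64 (SE 0.12, limma adjusted p = 0.00063) and, named after its values were seen, Gc at 0.44 (limma adjusted p = 0.020). Slc5a10 was at -0.49 (SE 0.09, limma adjusted p = 0.00053) and, named likewise, Chga at -0.33 (limma adjusted p = 0.031). In set 1 Gast, like Aldh1a3, was highest after Cop1 deletion, with means of 0.809 RPKM in controls, 2.96 RPKM after Cop1 deletion and 0.659 RPKM in Etv1/4/5 libraries, and fell in the last against Cop1 deletion (-1.58, limma adjusted p = 0.00032). In set 2 its means were 0.567, 1.34 and 2.11 RPKM, and the Etv4/5 libraries were not lower than Cop1 deletion (0.55, limma adjusted p = 0.16).

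**Figure D4:**
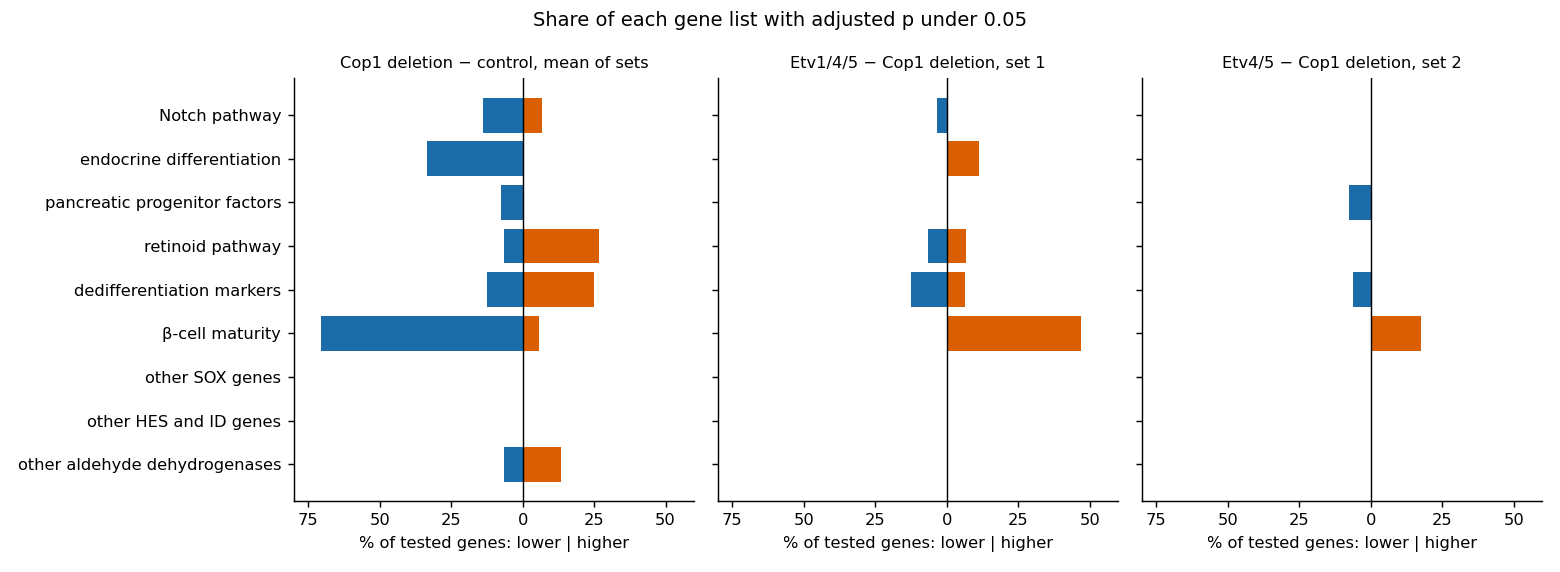
Percent of the tested genes of each list with a limma adjusted p under 0.05, higher (right of 0) or lower (left of 0), in 3 comparisons; the 4 genes described here are in none of the lists. After Cop1 deletion 12 of 17 β-cell maturity genes are lower, and against Cop1 deletion 8 of them are higher in Etv1/4/5 and 3 in Etv4/5 libraries.

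β-cell maturity genes moved opposite to Aldh1a3: of 17 tested, 12 fell and 1 rose, with a median of -0.69. The lists share genes, and Neurod1 is counted both here and among the endocrine differentiation genes. Slc2a2, the glucose transporter gene, was at -2.68 (SE 0.19, limma adjusted p = 1e-08), the transcription factor gene Mafa at -2.80 (SE 0.23, limma adjusted p = 9.5e-08) and the ion channel gene Trpm5 at -2.07 (SE 0.21, limma adjusted p = 1.5e-06). The gene that rose, named after its values were seen, was Iapp (0.36, limma adjusted p = 0.025). Of the same 17 genes, 8 were higher in the Etv1/4/5 libraries than after Cop1 deletion, where 3.65% of all genes tested were called higher. In the Etv4/5 libraries 3 were higher, with 0.676% of all genes called higher, Mafa (1.60, limma adjusted p = 0.020), Slc2a2 (1.13, limma adjusted p = 0.025) and Ero1b (0.71, limma adjusted p = 0.021). With the groups of set 2 alone in the fit, limma called 0 genes of all in this comparison, with 2077 at an unadjusted p under 0.05, and gave adjusted p-values of 0.15 for Mafa and 0.17 for Slc2a2. The Mafa call was also lost without Etv4/5 replicate 2, 3 or 4, and the Slc2a2 call without any of these or without Cop1 deletion replicate 2 or 3. Mean Slc2a2 in set 2 was 64.0 RPKM in controls, 5.58 RPKM after Cop1 deletion and 12.9 RPKM in Etv4/5 libraries.

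Markers of other cells were counted the same way in the mean of the sets. Of 14 duct markers tested, 5 were higher and 1 lower, with a median of 0.46: Krt7 (0.80), Epcam (0.49), Tspan8 (0.80), Spp1 (1.69) and, named after their values were seen, Pkhd1 (0.43) and Cldn4 (-0.58). The change of 6 of the 14 differed between the sets, 1 being higher and 5 lower in set 1 than in set 2, with medians of 0.21 and 0.61. Krt7 was at 0.27 in set 1 and 1.32 in set 2 (limma adjusted p = 0.0047 for the difference), and Epcam at -0.01 and 0.98 (limma adjusted p = 1.8e-05). Limma called 0 of 22 acinar markers, with a median of 0.94 and 2 at an unadjusted p under 0.05. Ctrb1 (1.02, limma adjusted p = 0.23) and Cela2a (0.89, limma adjusted p = 0.30) were the acinar genes with the highest level. Against Cop1 deletion, the Etv4/5 libraries also had 0 of 22 acinar markers called, with a median of -1.96. Of these markers 19 had an unadjusted p under 0.05 in that comparison. In the mean of the sets limma also called 0 of 10 stromal and 0 of 10 immune markers, with 0 and 2 at an unadjusted p under 0.05. Rgs5 (0.08), Col3a1 (0.32), Cd74 (0.37) and H2-Aa (0.48) had the highest levels of these. Of the endothelial genes, Plvap was 0.22 and Emcn 0.16. Of 5 other islet hormone genes, Pyy (1.06, limma adjusted p = 0.00031) and Ppy (1.33, limma adjusted p = 0.0016) rose and Sst (-0.84, limma adjusted p = 0.00031), the hormone gene of δ cells, fell.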

How the data were processed

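Mouse islet RNA was sequenced by Illumina methods, per the labels' protocols, and the values used are RPKM as deposited by the authors, made with the mm9 build per the submitters' processing notes. Not given in the sources used here are the aligner, the counter and the annotation. Of 24 library columns, 22 were placed by the sample number in their titles; the other 2 columns could not be placed and were not used. Symbols came from GRCm38.p6 by NCBI Gene number, which matched 24998 of 28059 genes.

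Genes reaching 1 RPKM in 4 or more libraries entered the fit with limma 3.58.1 in R 4.3.3 (data.table, version 1.17.8) on log2(RPKM + 0.5), with a trend and robust variances, 1 mean for each of 6 groups and 8 contrasts, 2-sided. Fold changes of low genes are understated on this scale. Adjusted p-values are Benjamini-Hochberg values over all 14342 genes, with a threshold of 0.05. The fit was tested on simulated data.

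Because the authors' RPKM values are whole reads divided by length and depth, reads were recovered by steps in the low values, and intervals on them are exact Poisson. Library sizes come from the same steps. The members and the 15 gene lists, which hold 234 genes, were chosen with earlier results of these data known. Named genes are the members, Cop1 and Esr1, the Etv genes (added after the data were seen), up to 4 called genes of each list with the smallest adjusted p in the mean of the sets (where none is called, the 2 with the highest mean RPKM), and the 5 genes most like each member, 1 of which is not reported here. Comparisons within a set share their control or Cop1 deletion libraries. Alternatives covered the pseudocount, filter, scaling, variance model, library weights, marker covariates, libraries with Xist above 1 RPKM and leaving out each library; 4 were added after the data were seen.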

Additional observations from a re-analysis of the deposited data

How the results depend on the processing

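Differences are limma log2 changes. Aldh1a3 after Cop1 deletion was called in all 39 alternatives in set 1 and all 38 in the mean of the sets, and Neurog3 in all 37 in that mean. The filter of 5 RPKM in 4 libraries dropped Neurog3 and Sox9, and the fit within a set gives no mean of the sets. The duct covariate itself differed without overlap between controls and Cop1 deletion, in opposite directions in the sets, and between Cop1 deletion and both Etv groups. No paired analysis was possible because the labels number no replicates; the numbers used here only name libraries. With the summed duct markers other than Spp1 as covariate, Aldh1a3 was 0.54 for Cop1 deletion in set 2, -4.51 for Etv1/4/5 against Cop1 deletion, -0.50 for Etv1/4/5 against control and 0.015 for Etv4/5 against Cop1 deletion. Neurog3 was 0.72 for Cop1 deletion in set 1, -0.22 for set 1 minus set 2 and -0.87 for Etv1/4/5 against Cop1 deletion. Hes1 was 0.82 for Cop1 deletion in set 1, -0.53 for Cop1 deletion in set 2, 0.15 for the mean of the sets, -0.12 for Etv1/4/5 against control, 0.11 for Etv4/5 against Cop1 deletion and -0.42 for Etv4/5 against control. Sox9 was -2.69 for Cop1 deletion in set 2, -0.73 for the mean of the sets, -1.74 for Etv1/4/5 against Cop1 deletion, -0.52 for Etv1/4/5 against control and 0.77 for Etv4/5 against Cop1 deletion. 5 genes were called for Cop1 deletion in set 2, 977 for the mean of the sets, 0 for set 1 minus set 2, 73 for Etv1/4/5 against Cop1 deletion, 70 for Etv1/4/5 against control, 0 for Etv4/5 against Cop1 deletion and 414 for Etv4/5 against control. For Cop1 deletion in set 2 Nkx6-1 was 0.45, Nkx2-2 was 0.031, Insm1 was 0.29, Slc5a10 was 0.044, Aldh3b1 was -0.20, Dusp6 was -0.007, C630043F03Rik was -0.17 and Trf was -1.18. With library weights, Aldh1a3 was 1.87 for set 1 minus set 2 and 1.75 for Etv4/5 against control. Neurog3 was 0.38 for Cop1 deletion in set 2, 0.58 for set 1 minus set 2 and -0.37 for Etv4/5 against Cop1 deletion. Hes1 was 0.55 for Cop1 deletion in set 1, 0.39 for Cop1 deletion in set 2, -0.43 for Etv1/4/5 against Cop1 deletion, -0.19 for Etv4/5 against Cop1 deletion and 0.20 for Etv4/5 against control. Sox9 was -0.16 for Cop1 deletion in set 1, -0.80 for set 1 minus set 2, -0.15 for Etv1/4/5 against control and -0.71 for Etv4/5 against Cop1 deletion. These values of Aldh1a3, Neurog3 and Hes1 with library weights were all called, and of those of Sox9 only the last. 5429 genes were called for Cop1 deletion in set 1, 5035 for Cop1 deletion in set 2, 6259 for the mean of the sets, 3872 for set 1 minus set 2, 3712 for Etv1/4/5 against Cop1 deletion, 3022 for Etv1/4/5 against control, 3217 for Etv4/5 against Cop1 deletion and 4766 for Etv4/5 against control. With only the groups of the same set in the fit, Hes1 was 0.52 for Cop1 deletion in set 1 and -0.38 for Etv1/4/5 against Cop1 deletion. 2112 genes were called for Cop1 deletion in set 1, 1469 for Cop1 deletion in set 2, 1704 for Etv1/4/5 against Cop1 deletion, 0 for Etv4/5 against Cop1 deletion and 664 for Etv4/5 against control. With libraries scaled to equal total RPKM, Neurog3 was -0.04 for Etv4/5 against control. Hes1 was 0.65 for Cop1 deletion in set 1 and -0.054 for Etv4/5 against control. 610 genes were called for set 1 minus set 2 and 1628 for Etv1/4/5 against Cop1 deletion. With that scaling computed without Ins1 and Ins2, Neurog3 was -0.069 for Etv4/5 against control. Hes1 was 0.34 for the mean of the sets and -0.09 for Etv4/5 against control. 4681 genes were called for Cop1 deletion in set 2. With the set 2 libraries limited to those with Xist, Aldh1a3 was 2.01 for Cop1 deletion in set 2. Hes1 was 0.30 for the mean of the sets. Sox9 was -0.23 for Cop1 deletion in set 2 and -0.002 for the mean of the sets. 1329 genes were called for Cop1 deletion in set 2, 269 for set 1 minus set 2, 1422 for Etv1/4/5 against Cop1 deletion and 7 for Etv4/5 against Cop1 deletion. With the summed acinar markers as covariate, 10 genes were called for Etv4/5 against Cop1 deletion. With the endothelial covariate, Hes1 was 0.38 for Cop1 deletion in set 1, 0.25 for Cop1 deletion in set 2, -0.31 for Etv1/4/5 against Cop1 deletion, -0.38 for Etv4/5 against Cop1 deletion and -0.13 for Etv4/5 against control. Sox9 was -0.048 for Cop1 deletion in set 1, -0.018 for Cop1 deletion in set 2, -0.033 for the mean of the sets and -0.03 for set 1 minus set 2. 923 genes were called for set 1 minus set 2, 1374 for Etv1/4/5 against Cop1 deletion, 2402 for Etv4/5 against Cop1 deletion and 2152 for Etv4/5 against control. With the Krt19, Muc1 and Cftr covariate, Neurog3 was -0.059 for Etv4/5 against control. Hes1 was 0.48 for Cop1 deletion in set 1 and 0.005 for Etv4/5 against Cop1 deletion. Sox9 was -0.53 for Cop1 deletion in set 2, -0.22 for the mean of the sets and 0.51 for Etv4/5 against Cop1 deletion. 12 genes were called for Etv4/5 against Cop1 deletion. With limma voom on the recovered reads, 791 genes were called for Cop1 deletion in set 1, 241 for set 1 minus set 2, 579 for Etv1/4/5 against Cop1 deletion and 100 for Etv1/4/5 against control. With each library left out in turn, Aldh1a3 was -0.36 to 1.33 for set 1 minus set 2, -0.55 to 1.14 for Etv1/4/5 against control and 1.56 to 1.95 for Etv4/5 against control. Neurog3 was 0.76 to 1.17 for Cop1 deletion in set 1 and -0.07 to 0.12 for Etv4/5 against control. Hes1 was 0.44 to 0.61 for Cop1 deletion in set 1, 0.22 to 0.50 for Cop1 deletion in set 2 and -0.085 to 0.20 for Etv4/5 against control. Sox9 was -0.17 to 0.56 for Cop1 deletion in set 2, -0.34 to 0.39 for set 1 minus set 2 and -0.023 to 0.22 for Etv1/4/5 against Cop1 deletion. Called genes numbered 719 to 1891 for Cop1 deletion in set 1, 217 to 843 for set 1 minus set 2, 543 to 1517 for Etv1/4/5 against Cop1 deletion, 91 to 358 for Etv1/4/5 against control, 15 to 775 for Etv4/5 against Cop1 deletion and 801 to 1995 for Etv4/5 against control. With the duct covariate, 830 genes had an unadjusted p under 0.05 for Etv4/5 against Cop1 deletion and 1643 for set 1 minus set 2; within the set, 2077 had one for Etv4/5 against Cop1 deletion. Scaling to equal total RPKM moved the median of all genes to 0.12 for Cop1 deletion in set 1, -0.13 for Etv1/4/5 against Cop1 deletion and 0.20 for set 1 minus set 2, and without Ins1 and Ins2 to -0.16 for Cop1 deletion in set 2. Under equal totals 81.4% of called genes were higher for Cop1 deletion in set 1, against 48.5% as deposited, and without Ins1 and Ins2 13.5% in set 2, against 48.2%. Of the other results, 8324 of the list counts under an alternative stayed within 1.5 times and 976 did not, and 521 calls of named genes were lost. Neurog3 and Sox9 are limited by depth, with as few as 29 and 23 reads in a library. The cause of these changes was not tested.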
